A study of Homo sapiens with 12 samples.

Results

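The long non-coding RNAs that host small nucleolar RNAs (snoRNAs) were examined in cells whose label is HEL, an erythroleukaemia line of human origin, grown with or without the plant glucoside DMAG. The members were all transcripts of the annotated lncRNA table whose gene symbol begins with SNHG (snoRNA host gene) or equals GAS5. They came to 70 transcripts of 15 genes, out of 2819 transcripts of 2193 genes. SNHG1, SNHG3 to SNHG12, SNHG14 to SNHG16 and GAS5 made up the group. DMAG is the 2-O-glucoside of 3,8-Di-O-methylellagic acid, a compound of the herb Sanguisorba officinalis. The 3 DMAG samples received 40 µg/ml for 3 days. For the 3 control samples no dose, day or vehicle is recorded, so whether they carried the solvent is not known here. Both groups were sequenced from RNA depleted of ribosomal RNA. The labels do not say whether the samples of a group came from separate cultures, and the p-values below then measure only the spread between these 6 libraries.

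A snoRNA host gene is transcribed as a longer RNA whose introns are trimmed into snoRNAs after splicing. Many box C/D snoRNAs guide the methylation of ribosomal RNA and many box H/ACA snoRNAs guide its pseudouridylation. Guides of the same changes on spliceosomal RNAs in Cajal bodies are called scaRNAs. The spliced exons are what an lncRNA table measures. Many of these exonic RNAs are translated over short reading frames and removed by nonsense-mediated decay, and several host genes begin with the pyrimidine-rich start (5′TOP) that they share with ribosomal protein genes, whose translation follows growth signals. GAS5 was first described as an RNA that builds up in cells whose growth is arrested.

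In the RefSeq annotation of GRCh38.p14, GAS5 (ENSG00000234741.7, chr1:173863901-173869045, minus strand) held 11 snoRNAs, 10 of them box C/D. SNHG1 held 9, of which 8 are named as box C/D, SNHG16 held SNORD1A, SNORD1B and SNORD1C, SNHG5 held SNORD50A and SNORD50B, and SNHG6 held SNORD87. The largest cluster lay in SNHG14, with 84 snoRNAs, 83 of them box C/D. Box H/ACA snoRNAs alone were found in SNHG3, SNHG4, SNHG7, SNHG8, SNHG9, SNHG11 and SNHG15. SNHG12 held SNORD99 beside 3 box H/ACA snoRNAs, and SNHG10 held the scaRNA SCARNA13.

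The starts of 12 of the 15 genes were matched in the RefSeq promoter table (GRCh38.p14). They are shown for members whose levels are described most closely below, because a pyrimidine-rich start is known for several host genes. Each line runs 5′ to 3′ on the strand of the gene, from 10 bases before the start given in that table to 50 bases after it, and capitals mark the first run of at least 6 C or T bases.
SNHG4, chr5:139274091-139274150, plus strand: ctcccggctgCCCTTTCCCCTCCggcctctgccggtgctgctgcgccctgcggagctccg
SNHG5, chr6:85678684-85678743, minus strand: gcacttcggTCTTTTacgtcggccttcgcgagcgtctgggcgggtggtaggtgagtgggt
SNHG12, chr1:28581824-28581883, minus strand: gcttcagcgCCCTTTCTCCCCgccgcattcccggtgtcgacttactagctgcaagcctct
SNHG8, chr4:118278752-118278811, plus strand: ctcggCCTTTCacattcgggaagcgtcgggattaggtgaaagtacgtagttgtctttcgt
SNHG16, chr17:76557754-76557813, plus strand: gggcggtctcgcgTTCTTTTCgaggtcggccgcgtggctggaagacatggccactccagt
GAS5, chr1:173868996-173869055, minus strand: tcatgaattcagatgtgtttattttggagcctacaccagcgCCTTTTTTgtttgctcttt
SNHG1, chr11:62855836-62855895, minus strand: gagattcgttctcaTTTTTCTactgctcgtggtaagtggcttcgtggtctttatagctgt
SNHG3, chr1:28505933-28505992, plus strand: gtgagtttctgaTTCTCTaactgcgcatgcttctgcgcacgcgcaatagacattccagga
SNHG10, chr14:95534823-95534882, minus strand: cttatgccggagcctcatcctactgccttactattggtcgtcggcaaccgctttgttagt
A run of at least 6 C or T on the transcribed strand was present in 10 of the 12 windows (83.3%), against 48.1% of the 35116 windows of the whole table. SNHG10 and SNHG11 had none. The run need not lie at the start itself. It began at the start base or the base before it in SNHG4, SNHG5 and SNHG12. In the others its first base ranged from -10 in SNHG7 to 32 in GAS5, counted from the start. The letters CTTTT were on the transcribed strand in 3 of the 12 windows (25.0%), those of SNHG5, SNHG16 and GAS5, against 6.56% of all windows. With CTTTT on the other strand (AAAAG as printed here) counted too, it was again 3 of the 12, against 11.4% of all windows. TATAA or its reverse complement TTATA stood 45 to 16 bases before the start in 4 of the 12, SNHG5, SNHG7, SNHG8 and SNHG12 (33.3%), against 5.04% of all starts. The motifs were chosen after the sequences had been read, and a match describes the letters of the window only. The start of SNHG12 in that table lies 1110 bases inside the gene as RefSeq spans it, and those of the other 11 genes are at the end of the span. The annotated start of SNHG4 is also that of the protein-coding gene MATR3.

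Some facts of the whole series bear on these values. Of 9 erythroid and megakaryocytic markers used to check the HEL label, 7 stayed under 1 FPKM in all 6 libraries. The 9 markers summed to between 5.01 and 7.40 FPKM in the DMAG libraries and to between 3.91 and 4.76 FPKM in the control libraries. Some granulocyte genes were abundant, with myeloperoxidase (MPO) at 815 ± 82.9 FPKM with DMAG and 1089 ± 29.1 FPKM in controls (SD, n = 3 each). The expression data therefore go against the lineage of the label, and the cells are called here by their label only. Summed over 6 granulocyte and monocyte genes, the level was between 1438 and 1593 FPKM with DMAG and between 2130 and 2296 FPKM in controls. These genes did not move together. MPO, PRTN3, ELANE and CTSG fell. LYZ rose, at 444 ± 26.0 FPKM with DMAG and 168 ± 2.61 FPKM in controls (SD, n = 3 each, log2 change 1.40, limma adjusted p = 2.5e-05). CD14 stayed under 1 FPKM in all 6 libraries. Whether these shifts in marker genes have a part in the results below was not tested. DMAG replicate 3 stood apart by adult globin RNA, with HBB at 1367 FPKM against at most 0.0731 FPKM in the other 5 libraries. Bulk RNA cannot tell fewer cells of one kind from less RNA per cell.

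Among the 15 genes, read as the sum of FPKM over their transcripts, 5 fell and 2 rose with DMAG, and 8 did not pass the test. SNHG4, SNHG15, SNHG5, SNHG12 and SNHG8 were the genes that fell, and SNHG3 and SNHG10 those that rose. The test was limma on log2(FPKM + 0.1) over all 2143 lncRNA genes that averaged 0.1 FPKM or more, with an adjusted p under 0.05 as the call. Over all those genes 4.34% were called lower and 19.1% higher, so falls were more frequent among the members than in the table and rises were not. All members but SNHG9 averaged more than 1 FPKM in both groups, and the shares over all genes were not matched for level. The median log2 change was -0.18 over the members and 0.20 over all lncRNA genes tested. Without DMAG replicate 3, the library with globin RNA, 4 members were called lower and 2 higher. Groups of libraries did not overlap for 7 genes that were lower with DMAG and 2 that were higher, where 10.6% and 31.0% of all genes tested did so.

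Together the members amounted to 802, 904 and 864 FPKM in the DMAG libraries, against 1034, 982 and 1033 FPKM in the control libraries. Every DMAG library lay below every control library in this sum. As a share of the whole annotated lncRNA table the members made up 1.90 ± 0.0592% with DMAG and 2.01 ± 0.254% in controls (SD, n = 3 each), and these shares overlapped between the groups. SNHG8 had the highest level in both groups, followed by GAS5, SNHG1 and SNHG16, and SNHG9 the lowest. SNHG4 took place 13 of 15 with DMAG and place 8 in controls, and SNHG10 took place 10 with DMAG and place 13 in controls. SNHG9 was at 0.582 ± 0.291 FPKM with DMAG and 0.667 ± 0.283 FPKM in controls (SD, n = 3 each), close to the lower limit of the test.

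**Figure D1:**
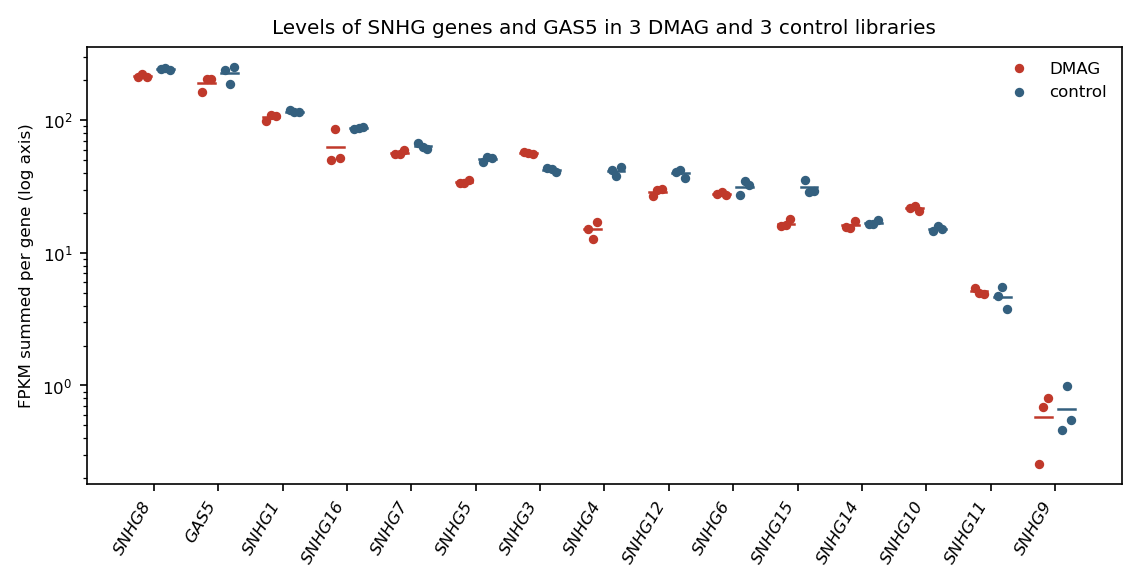
Summed FPKM of each snoRNA host gene on a log axis, with 3 DMAG libraries (left of each pair) and 3 control libraries (right), ordered by the control mean. Points are libraries and bars are group means. The groups lie farthest apart for SNHG4, at 12.7 to 17.2 FPKM with DMAG and 38.1 to 44.4 FPKM in controls, and the DMAG libraries of SNHG16 spread from 50.2 to 86.7 FPKM.

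Calls of rises, and of several falls, depended on the scale. The median log2 change with DMAG was 0.20 over all lncRNA genes tested and -0.01 over mRNA genes. Bringing the libraries to the same lncRNA median left a median log2 change of -0.04 over all lncRNA genes. It lowered the log2 change of SNHG8 by more than 0.20, from -0.18 to -0.44. When the 6 libraries were brought to the same lncRNA median, 11 of the 15 members were called lower and 0 higher by limma, with 1 higher at an unadjusted p under 0.05, against 10.5% and 10.2% of all genes. Scaling by the mRNA median instead gave 4 members lower and 2 higher, against 4.2% and 19.8% of all genes. The falls of SNHG4, SNHG15, SNHG5 and SNHG12 passed under both scalings. GAS5, SNHG1, SNHG6, SNHG7, SNHG14 and SNHG16 were called lower at the same lncRNA median (limma adjusted p between 0.0052 and 0.024). With all 6 libraries, none of them was called in the values as deposited or under mRNA scaling.

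Of the genes that host box H/ACA snoRNAs, SNHG4 (ENSG00000281398.3, chr5:139274101-139284900, plus strand), host of SNORA74A and SNORA74D, changed most. Its summed level was 15.2, 12.7 and 17.2 FPKM in the DMAG libraries, against 42.1, 38.1 and 44.4 FPKM in the control libraries. The groups were far apart, and SNHG4 was 2.76-fold lower with DMAG (log2 change -1.47, SE 0.117, limma adjusted p = 2.1e-04). Each of its 4 transcripts had a negative log2 change, from -1.64 to -0.59, and 3 of them passed the test per transcript. The most abundant, ENST00000505522.5, was at 7.74, 4.84 and 6.82 FPKM with DMAG, against 19.2, 19.9 and 20.8 FPKM in controls. SNHG4 lies within MATR3, which encodes a nuclear matrix protein, on the same strand, and reads may have been divided between them. Of the pair of MATR3 entries in the mRNA table, one was at 45.02 ± 8.23 FPKM with DMAG and 47.7 ± 20.6 FPKM in controls (limma adjusted p = 0.97). The other was at 22.8 ± 12.9 FPKM with DMAG and 36.9 ± 6.76 FPKM in controls (SD, n = 3 each, limma adjusted p = 0.13).

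SNHG15 (ENSG00000232956.8, chr7:44983023-44986696), host of SNORA9, showed the next largest change. Its sum was 15.8, 16.2 and 17.9 FPKM with DMAG, against 35.5, 28.7 and 29.6 FPKM in controls. No DMAG library came near a control library, and the level was 1.88-fold lower (log2 change -0.90, SE 0.1002, limma adjusted p = 7.5e-04). All 5 of its transcripts had negative log2 changes, between -1.23 and -0.33, and 3 passed. They were ENST00000577700.5 (log2 change -0.96), ENST00000578968.5 (-0.76) and ENST00000582727.1 (-1.23). The call of ENST00000578968.5 was lost in 4 of the 6 fits that left out 1 library, at adjusted p between 0.080 and 0.11.

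SNHG8 (ENSG00000269893.6, chr4:118278762-118279823, plus strand), host of SNORA24, had the highest level of the 15 genes. It measured 212, 226 and 212 FPKM with DMAG, against 245, 249 and 242 FPKM in controls. The groups did not overlap, but the difference was small (1.13-fold lower, log2 change -0.18, SE 0.0548, limma adjusted p = 0.045). This call was lost when any library other than DMAG replicate 2 was left out, at adjusted p between 0.083 and 0.14, and under mRNA scaling, at 0.060. The fall came with ENST00000602573.1, at 69.4, 77.1 and 68.2 FPKM with DMAG against 94.8, 95.7 and 91.2 FPKM in controls (log2 change -0.39, limma adjusted p = 0.014). The more abundant ENST00000602819.5 was at 140 ± 2.71 FPKM with DMAG and 146 ± 1.34 FPKM in controls (SD, n = 3 each, limma adjusted p = 0.51). That these transcripts differ in response was not shown (diffSplice adjusted p = 0.81).

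SNHG3 (ENSG00000242125.3, chr1:28505943-28510892, plus strand), host of SNORA73A and SNORA73B, was one of the genes that rose. Its single listed transcript, ENST00000413987.1, was at 57.7, 56.98 and 55.3 FPKM with DMAG, against 43.4, 43.1 and 41.0 FPKM in controls. All DMAG libraries were above all controls (1.33-fold, log2 change 0.41, SE 0.0625, limma adjusted p = 0.0030). With the libraries at the same lncRNA median the log2 change was 0.15 (adjusted p = 0.15), and without the mean trend the call was lost too (adjusted p = 0.063). SNHG3 shares 4850 bases with RCC1, the exchange factor of the GTPase Ran, on the same strand. RCC1 went the other way, at 39.1, 48.6 and 38.02 FPKM with DMAG against 61.4, 72.5 and 70.7 FPKM in controls (log2 change -0.69, SE 0.110, limma adjusted p = 0.0030). How fragments of the shared bases were assigned to either gene is not given in the sources used here.

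SNHG7, host of SNORA17A and SNORA17B, was at 56.998 ± 2.50 FPKM with DMAG and 63.7 ± 3.68 FPKM in controls (SD, n = 3 each), a difference that did not pass (log2 change -0.16, limma adjusted p = 0.13). Its main transcript ENST00000416970.5 fell (log2 change -0.29, limma adjusted p = 0.038), a call that ended when any 1 library was left out. SNHG11, host of SNORA60 and SNORA71E, was low, at 5.13 ± 0.312 FPKM with DMAG and 4.68 ± 0.859 FPKM in controls (SD, n = 3 each, limma adjusted p = 0.53). Its most abundant transcript ENST00000434729.5 had a log2 change of 0.52 (limma adjusted p = 0.14). The minor SNHG11 transcript ENST00000437028.5 rose, at 1.23, 1.02 and 1.61 FPKM with DMAG against 0.684, 0.595 and 0.412 FPKM in controls (log2 change 1.07, limma adjusted p = 0.036). Leaving out any 1 library ended that call too.

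SNHG12 (ENSG00000197989.13, chr1:28578538-28582983, minus strand) hosts snoRNAs of both boxes. Its sum was 27.0, 29.6 and 30.4 FPKM with DMAG, against 40.9, 42.1 and 37.0 FPKM in controls. The groups were separate, at 1.38-fold lower with DMAG (log2 change -0.46, SE 0.0809, limma adjusted p = 0.0053). Its 7 transcripts had negative log2 changes without exception, and ENST00000531126.5 (log2 change -0.58), ENST00000461448.5 (-0.41) and ENST00000481220.5 (-2.41) passed. ENST00000531126.5 and ENST00000461448.5 each lost the call in 5 of the 6 fits that left out 1 library, at adjusted p between 0.055 and 0.12. Without the mean trend the sum of SNHG12 did not pass (adjusted p = 0.061).

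SNHG10 (ENSG00000247092.6, chr14:95532912-95534872, minus strand), host of the scaRNA SCARNA13, rose. It was at 21.7, 22.5 and 20.8 FPKM with DMAG, against 14.7, 15.9 and 15.0 FPKM in controls. The groups did not overlap (1.42-fold higher, log2 change 0.51, SE 0.0774, limma adjusted p = 0.0032), and nearly all of the level was ENST00000554169.1 (log2 change 0.53). At the same lncRNA median the log2 change of the sum was 0.24 (adjusted p = 0.071).

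**Figure D2:**
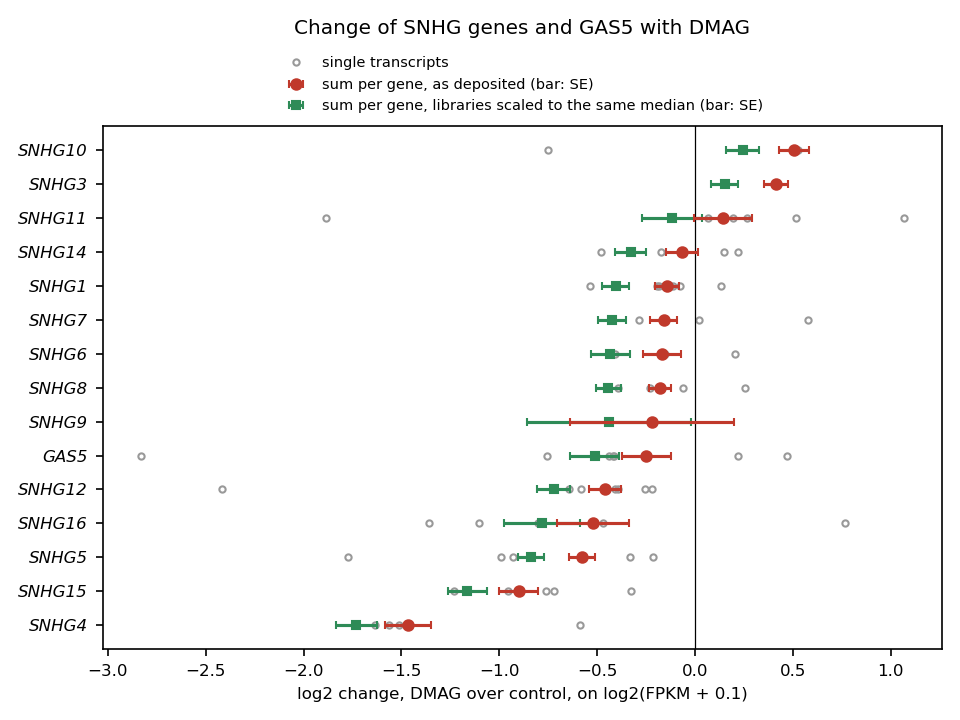
Log2 change, DMAG over control, of each host gene as deposited (red circles) and after all libraries were brought to the same lncRNA median (green squares), with standard errors, and of each tested transcript (open grey circles). SNHG10 and SNHG3 are the genes furthest to the right, at 0.51 and 0.41 as deposited and at 0.24 and 0.15 after scaling, and SNHG4 is furthest to the left at -1.47.

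Among the hosts of box C/D snoRNAs, SNHG5 (ENSG00000203875.10, chr6:85677007-85678733, minus strand) fell. Its sum was 33.7, 33.6 and 35.4 FPKM with DMAG, against 48.7, 52.6 and 52.1 FPKM in controls. The libraries of each group were close together and the groups well apart (1.49-fold lower, log2 change -0.58, SE 0.0667, limma adjusted p = 7.9e-04). ENST00000369605.8 (log2 change -0.99) and ENST00000431043.1 (-0.93) passed. The most abundant, ENST00000414002.5, was at 20.5 ± 2.24 FPKM with DMAG and 25.7 ± 1.32 FPKM in controls (SD, n = 3 each) and did not (log2 change -0.33, limma adjusted p = 0.062).

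For SNHG16 (ENSG00000163597.14, chr17:76557764-76565348, plus strand) the outcome in the values as deposited turned on 1 library. The sum was 50.2, 86.7 and 51.9 FPKM with DMAG, against 85.9, 87.1 and 89.1 FPKM in controls. DMAG replicate 2 was at the control level, while DMAG replicates 1 and 3 were well below it. The test did not pass with all libraries (log2 change -0.52, SE 0.183, limma adjusted p = 0.072), and without DMAG replicate 2 it did (log2 change -0.77, limma adjusted p = 0.0012). At the same lncRNA median SNHG16 passed with all libraries (log2 change -0.78, limma adjusted p = 0.024).

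GAS5, the member with the most transcripts after SNHG1, did not pass as a sum. It was at 164.4, 204.9 and 204.3 FPKM with DMAG, against 242, 189 and 253 FPKM in controls. Control replicate 2 lay below 2 of the DMAG libraries, so the groups overlapped (log2 change -0.25, SE 0.126, limma adjusted p = 0.19). Without control replicate 2 the log2 change was -0.38 (limma adjusted p = 0.047).

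SNHG1 was at 99.4, 110 and 108 FPKM with DMAG, against 119, 115 and 115 FPKM in controls. The groups did not overlap, yet the difference did not pass (log2 change -0.14, SE 0.0615, limma adjusted p = 0.13). Of its 9 transcripts, 8 had a negative log2 change and none passed, and the most abundant, ENST00000537869.5, was at 31.9 ± 1.58 FPKM with DMAG and 34.9 ± 3.25 FPKM in controls (SD, n = 3 each). SNHG6 was at 28.0 ± 0.730 FPKM with DMAG and 31.6 ± 3.78 FPKM in controls (limma adjusted p = 0.23), most of it ENST00000520944.5 (log2 change -0.15). SNHG14 was at 16.1 ± 1.03 FPKM with DMAG and 16.9 ± 0.658 FPKM in controls (SD, n = 3 each, limma adjusted p = 0.61). SNHG14 overlaps SNRPN and SNURF on its own strand and UBE3A on the other, so part of its signal may be theirs.

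Read per transcript, 16 of the 68 members tested fell and 4 rose, and 48 did not pass. Over all 2746 lncRNA transcripts tested, limma called 3.42% lower and 12.7% higher. Transcripts of 1 gene are not independent, and SNHG4, SNHG12 and SNHG15 gave 3 of the falls each. Members had 70 transcripts of 15 genes, against 2819 of 2193 among all annotated lncRNAs, so these shares are not a like comparison. At the same lncRNA median, 26 member transcripts were lower and 0 higher by limma, with 4 higher at an unadjusted p under 0.05, against 7.1% and 6.99% of all transcripts. Non-overlapping groups were found for 23 member transcripts that were lower with DMAG and 7 that were higher, where 10.9% and 28.0% of all transcripts tested had them. Only ENST00000449351.5 of SNHG11 and ENST00000551361.1 of SNHG14 stayed under the mean of 0.1 FPKM and were left untested. Without DMAG replicate 3 the calls were 15 lower and 2 higher, and without DMAG replicate 1 they were 9 lower and 2 higher. SNHG4, SNHG5, SNHG12 and SNHG15 were the genes with more than 1 tested transcript whose log2 changes were all negative.

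The transcripts of a gene need not move together. limma's diffSplice compares the log2 changes of the transcripts of each gene, and it called SNHG12 (adjusted p = 0.0088) and SNHG16 (adjusted p = 0.034) among 13 members with at least 2 tested transcripts. Of all 300 genes tested in this way 3.67% were called. A weighted form of the test, added after the data had been seen, called SNHG16 (adjusted p = 0.0022), SNHG7, SNHG12 and SNHG14 (adjusted p = 0.046 for each of these), against 6.33% of all genes.

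In SNHG16 the leading transcript was a different one in the 2 groups. ENST00000590435.5 was at 16.4, 32.6 and 17.5 FPKM with DMAG, against 52.7, 59.1 and 51.4 FPKM in controls (log2 change -1.36, SE 0.248, limma adjusted p = 0.014). ENST00000493536.5 was at 26.4, 42.1 and 27.7 FPKM with DMAG, against 18.2, 16.02 and 21.4 FPKM in controls (log2 change 0.76, SE 0.194, limma adjusted p = 0.038). One fell and the other rose, with no overlap between the groups in either. The call of the fall held in every alternative run, while that of the rise was lost in 5 of the 6 fits that left out 1 library (adjusted p between 0.057 and 0.10) and at the same lncRNA median (log2 change 0.53, adjusted p = 0.13). As a share of the gene, ENST00000493536.5 made up 52.5%, 48.5% and 53.4% with DMAG, against 21.1%, 18.4% and 24.0% in controls, and ENST00000590435.5 made up 34.7 ± 2.57% with DMAG and 62.3 ± 5.21% in controls (SD, n = 3 each). DMAG replicate 2, which was at the control level in the sum, had the shares of the other DMAG libraries. Relative to the other transcripts of SNHG16 the log2 change of ENST00000493536.5 was 1.70 (diffSplice adjusted p = 0.012). ENST00000591956.1 fell as well (log2 change -1.10, limma adjusted p = 0.013). The test of the whole gene lost its call when any library other than DMAG replicate 2 was left out, at adjusted p between 0.096 and 0.17.

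SNHG12 differed through a minor transcript. ENST00000481220.5 was at 0.393, 0.282 and 0.0976 FPKM with DMAG, against 1.78, 1.96 and 1.36 FPKM in controls. The groups were far apart, although the level is low, and on the log2(FPKM + 0.1) scale the change was -2.41 (SE 0.377, limma adjusted p = 0.0082). Its share of SNHG12 was 0.908 ± 0.568% with DMAG and 4.23 ± 0.505% in controls (SD, n = 3 each), and its change relative to the other transcripts was -2.00 (diffSplice adjusted p = 5.4e-04). The call of the gene was lost without control replicate 2, DMAG replicate 2 or DMAG replicate 3, at adjusted p between 0.059 and 0.12, and at a pseudocount of 1 in place of 0.1, at adjusted p = 0.081. The leading transcripts ENST00000531126.5, ENST00000474814.1 and ENST00000461448.5 had shares of 27.0%, 30.3% and 24.2% with DMAG and 29.6%, 25.8% and 23.4% in controls.

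Within SNHG14, ENST00000640631.1 held 55.7%, 56.0% and 54.4% of the gene with DMAG, against 46.5%, 46.3% and 43.0% in controls. ENST00000551631.6 held 28.7%, 31.4% and 31.7% with DMAG, against 40.6%, 41.5% and 41.2% in controls. Both shares were separate between the groups, and ENST00000551631.6 fell (log2 change -0.48, limma adjusted p = 0.028). That call was lost in 5 of the 6 fits that left out 1 library, at adjusted p between 0.062 and 0.085. The difference in ENST00000640631.1 did not pass as a level (log2 change 0.22, limma adjusted p = 0.12), and diffSplice did not call the gene without weights (adjusted p = 0.49).

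Several GAS5 transcripts varied widely within groups. ENST00000450589.5 was at 0, 118 and 92.1 FPKM with DMAG, against 144, 18.6 and 146 FPKM in controls. Its low libraries, DMAG replicate 1 and control replicate 2, were those in which other GAS5 transcripts were high. ENST00000430245.5 was at 73.4, 20.1 and 35.7 FPKM with DMAG, against 23.5, 36.7 and 23.0 FPKM in controls. ENST00000454068.5 was at 31.3, 5.44 and 7.79 FPKM with DMAG, against 7.63, 52.8 and 9.50 FPKM in controls. The sum of GAS5 stayed between 164.4 and 253.1 FPKM, and no difference between its transcripts was called (diffSplice adjusted p = 0.97).

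**Figure D3:**
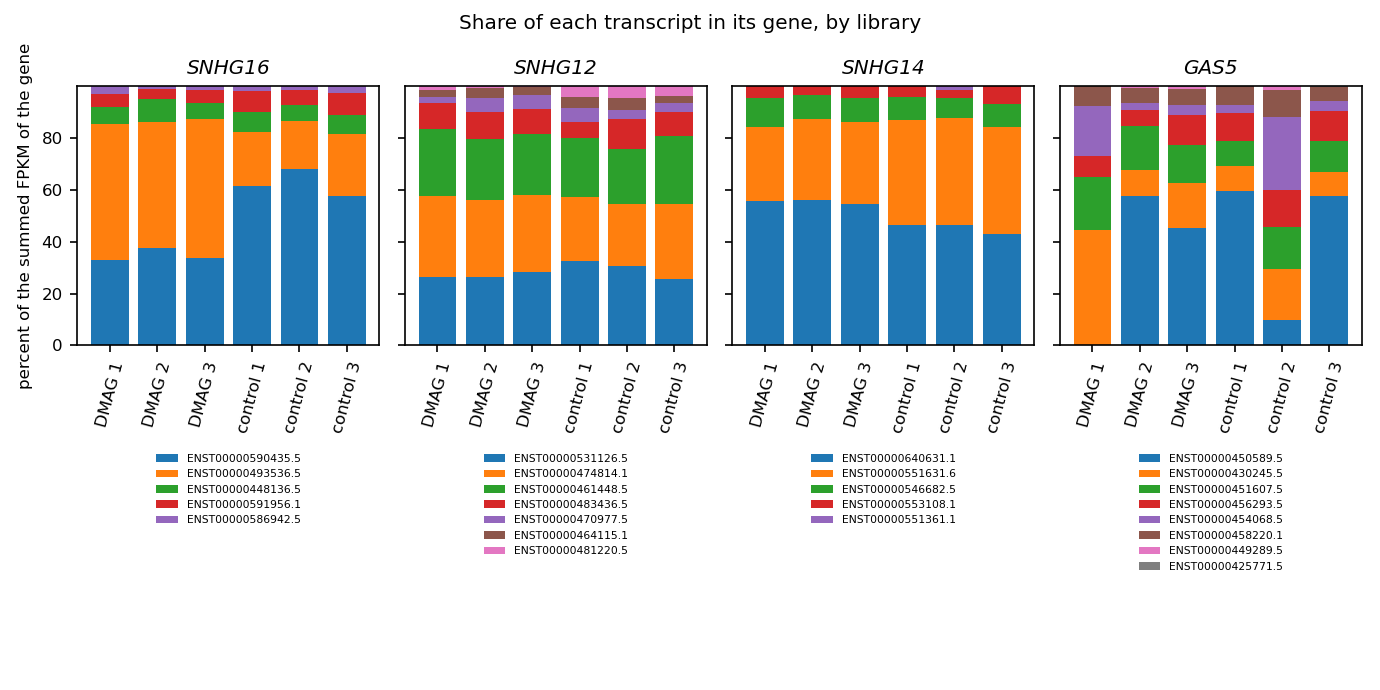
Share of each transcript in the summed FPKM of SNHG16, SNHG12, SNHG14 and GAS5, with the 3 DMAG libraries left of the 3 control libraries in each panel. ENST00000493536.5 of SNHG16 takes 48.5% to 53.4% of the gene with DMAG and 18.4% to 24.0% in controls, while the shares within GAS5 differ most in DMAG replicate 1 and control replicate 2.

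Most genes for the protein partners of snoRNAs fell with DMAG. Of the 4 core proteins of box C/D particles, 3 fell, and of the 4 of box H/ACA particles all fell, in a limma fit of log2(FPKM + 1) over 10394 mRNA genes that called 26.1% lower and 22.4% higher. Fibrillarin (FBL), the methyltransferase, was at 114, 132 and 130 FPKM with DMAG, against 206, 209 and 214 FPKM in controls (log2 change -0.74, SE 0.0614, limma adjusted p = 2.7e-04). NOP56 (log2 change -0.66) and NOP58 (-0.45), which hold the box C/D RNA, fell as well. SNU13, the protein that binds the RNA first, was at 96.3 ± 0.266 FPKM with DMAG and 84.0 ± 18.6 FPKM in controls (SD, n = 3 each, limma adjusted p = 0.25). Among box H/ACA proteins, NHP2 (log2 change -0.48), GAR1 (-0.48) and NOP10 (-0.30) fell, and the pseudouridine synthase DKC1 fell by a small amount, at 64.2 ± 0.481 FPKM with DMAG and 70.1 ± 0.769 FPKM in controls (log2 change -0.13, limma adjusted p = 0.013). The median log2 change was -0.55 over the box C/D list, -0.39 over the box H/ACA list and -0.01 over all mRNA genes tested.

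Assembly of the particles needs further factors, and 7 of 10 listed fell, 0 rose and 3 did not pass, with a median log2 change of -0.27 and 1 member higher at an unadjusted p under 0.05. RUVBL2, an ATPase of the assembly machinery, was at 96.1 ± 4.46 FPKM with DMAG and 134 ± 3.91 FPKM in controls (SD, n = 3 each, log2 change -0.47, limma adjusted p = 4.5e-04). SHQ1 (log2 change -0.38) and NAF1 (-0.38), both chaperones of box H/ACA particles, and RUVBL1 (-0.25) fell too. RPAP3 had a log2 change of 0.13 (limma adjusted p = 0.059) and PIH1D1 one of -0.16 (limma adjusted p = 0.25).

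Protein-coding genes that also host snoRNAs moved mostly the same way, with 29 of 46 lower, 0 higher and 17 not passed by limma, and 1 higher at an unadjusted p under 0.05. Their median log2 change was -0.32. Many of the 46 encode ribosomal proteins, so the list does not set snoRNA hosting apart from that class. NOP56, NOP58 and DKC1 are also counted in the lists of core proteins above. RPL3, a protein of the large ribosomal subunit, was at 435, 452 and 447 FPKM with DMAG, against 801, 828 and 832 FPKM in controls, the smallest p of the list (log2 change -0.88, SE 0.0372, limma adjusted p = 3.9e-05). RPL5 (log2 change -0.53) and RPL4 (-0.40), of the same subunit, and NOP56 (-0.66) followed. Without DMAG replicate 3, 30 were lower. EIF4G2 (log2 change -0.11, limma adjusted p = 0.052) and RPS3 (-0.18, limma adjusted p = 0.063) were closest to the call among those that missed it.

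Nonsense-mediated decay factors, which remove many spliced host RNAs, showed no common direction. Of 16 listed genes, 4 rose, 2 fell and 10 did not pass, with a median log2 change of 0.01, against 22.4% higher and 26.1% lower over all mRNA genes. SMG5 was at 43.7 ± 0.607 FPKM with DMAG and 36.2 ± 1.28 FPKM in controls (log2 change 0.27, limma adjusted p = 0.0020), and RBM8A, of the exon junction complex, at 36.4 ± 1.27 FPKM with DMAG and 28.3 ± 1.498 FPKM in controls (SD, n = 3 each, log2 change 0.35, limma adjusted p = 0.0021). SMG8 (log2 change 0.24) and the helicase UPF1 (0.13) rose by less, and EIF4A3 (-0.14) and the kinase SMG1 (-0.23) fell. SMG6 (-0.19) and UPF3B (0.20) did not pass. Without DMAG replicate 2, 3 of the 16 were higher, and those that fell lost the call.

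**Figure D4:**
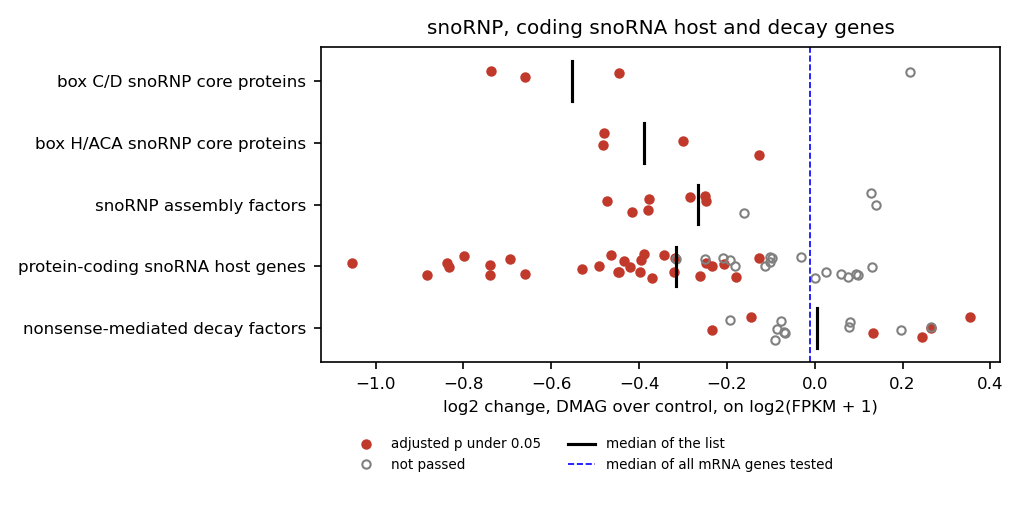
Log2 change, DMAG over control, of mRNA genes in 5 lists tied to snoRNAs, 1 point a gene. Filled points passed limma at an adjusted p under 0.05, black bars are list medians and the dashed line is the median of all mRNA genes tested. Both core protein lists, the assembly list and the coding hosts lie mostly left of 0, with medians from -0.55 to -0.27, and the decay list is centred at 0.01.

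Host lncRNAs without an SNHG symbol gave single comparisons. EPB41L4A-AS1 fell, at 5.85, 5.04 and 5.22 FPKM with DMAG against 9.29, 8.05 and 7.38 FPKM in controls (log2 change -0.61, SE 0.120, limma adjusted p = 0.0085). ZFAS1 was at 65.9 ± 3.70 FPKM with DMAG and 72.6 ± 4.43 FPKM in controls (SD, n = 3 each, limma adjusted p = 0.20). DANCR and MEG8 were looked up as well and gave no entry under these symbols, so no level is given for them.

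By the starts of the promoter table, a few members begin close to a coding gene on the opposite strand. The start of SNHG1 lies 224 bases from that of SLC3A2, the heavy chain of amino acid transporters, which fell to 63.1 ± 2.16 FPKM with DMAG, against 90.7 ± 8.93 FPKM in controls (log2 change -0.51, limma adjusted p = 0.0023). SNHG10, which rose, starts 178 bases from GLRX5, a mitochondrial glutaredoxin of iron-sulfur cluster assembly. GLRX5 fell to 39.4 ± 2.06 FPKM with DMAG, against 48.0 ± 1.51 FPKM in controls (SD, n = 3 each, log2 change -0.28, limma adjusted p = 0.0043). GAS5 overlaps the beginning of ZBTB37, a zinc finger gene, head to head, with starts 665 bases apart in that table. ZBTB37 rose, at 6.53, 5.95 and 5.99 FPKM with DMAG against 3.43, 3.25 and 3.75 FPKM in controls (log2 change 0.68, limma adjusted p = 5.1e-04). Reads of overlapping genes on opposite strands cannot be told apart unless strand was used in counting, which the sources used here do not state.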

How the data were processed

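RNA-Seq libraries of 3 DMAG and 3 control samples were used. The authors deposited FPKM values per transcript, which scale fragments by transcript length and library total. HISAT2 2.0.4, StringTie 1.3.3, Bowtie and the build GRCh38 stand in the submitters' processing notes without a role, and per the labels' protocols the libraries used a dUTP step. The sources used here give no settings of the quantification. FPKM values were summed per gene. The total depth is unknown, but steps between low values put the libraries at 0.973 to 1.10 times the depth of control replicate 1, and replicate number limits the precision. lncRNA values averaging 0.1 FPKM or more were tested as log2(FPKM + 0.1), and mRNA values averaging 0.5 FPKM or more as log2(FPKM + 1), with limma 3.58.1 (R 4.3.3, empirical Bayes with a mean trend), each table whole with Benjamini-Hochberg adjustment. The added constant makes log2 changes of low values too small. diffSplice compared transcripts within genes. The scripts were tested on simulated data. Members and gene lists were chosen with earlier results of these data known. Named were all members of at least 1 FPKM in either group, their most abundant and their called transcripts, and per list up to 4 called genes and up to 2 others of smallest p. Positions and snoRNAs came from RefSeq by symbol. The small RNA, circular RNA and unannotated lncRNA tables name no member and were left out. Pseudocounts, filters, scalings, the trend, a replicate block and left-out libraries were varied.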

Additional observations from a re-analysis of the deposited data

How the results depend on the processing

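The 20 calls among member transcripts became 11 without the mean trend and 11 to 17 with 1 library left out, lowest without DMAG replicate 1. Scaling to the same lncRNA median gave 26 transcript calls, all lower. The 7 calls among member genes became 11 at the same lncRNA median, 4 without the trend and 6 to 8 with 1 library left out. The 2 genes with differing transcripts became 4 with weights, 1 at a pseudocount of 1, 1 at a pseudocount of 0.01 and 0 to 1 with 1 library left out. Where diffSplice called 0, without control replicate 2 or DMAG replicate 3, 2 members had an unadjusted p under 0.05. The 46 calls among list genes stayed between 42 and 48 when 1 library was left out. The labels do not say whether replicate numbers pair the samples. Same-numbered libraries correlated at -0.00799, -0.0106 and 0.0411 in their lncRNA deviations from group means, against -0.0448 to 0.0524 for differently numbered ones. Over mRNA genes the values were -0.0048, 0.0426 and 0.027, against -0.0484 to 0.0186. Such small values over 3 libraries a group cannot decide whether cultures were paired. With the replicate number as a block, 13 member transcripts, 7 member genes, 0 genes with differing transcripts (SNHG12 at adjusted p = 0.051 and SNHG16 at 0.15, 3 members at an unadjusted p under 0.05) and 42 list genes were called.

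Direction reversed in 4 cases, none of which was called in the values as reported, and the cause was not tested. The log2 change of ENST00000450589.5 of GAS5 was -2.83 and lay between -4.59 and 0.51 with 1 library left out, above 0 without DMAG replicate 1. At the same lncRNA median, ENST00000640631.1 of SNHG14 was at -0.015 and the sum of SNHG11 at -0.12. With its most abundant transcript in place of the sum, SNHG14 was at 0.22. For single genes, 182 of the alternative values kept direction and side of the threshold, 14 lost the call and 12 gained it, and for single transcripts the numbers were 312, 59 and 5. The low levels of SNHG9 and of minor transcripts limit what can be detected there.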

Other observations

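Further genes of the files carry SNHG symbols in RefSeq under which the tables do not list them, and they were looked up after the values had been seen. LRRC75A-AS1 (SNHG29) was among the most abundant host lncRNAs, at 398, 329 and 406 FPKM with DMAG, against 349, 355 and 343 FPKM in controls. DMAG replicate 2 lay below every control and the other DMAG libraries above, and the difference did not pass (log2 change 0.11, limma adjusted p = 0.39). LINC00338 (SNHG20) was at 5.19 ± 0.720 FPKM with DMAG and 6.29 ± 0.373 FPKM in controls (SD, n = 3 each, limma adjusted p = 0.14). C6orf48 (SNHG32), listed in the mRNA table, was at 44.3 ± 2.29 FPKM with DMAG and 51.5 ± 4.32 FPKM in controls (SD, n = 3 each) and passed narrowly (log2 change -0.21, limma adjusted p = 0.049).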
